A study of Mus musculus with 39 samples.

Results

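White adipocyte genes are followed here through the gubernaculum and testis of mice that carry a whale INSL3 gene or no INSL3 gene. The 10 genes are Pparg, Cebpa, Plin1, Cidec, Fabp4, Lpl, Lipe, Adipoq, Lep and Retn. They were taken by symbol from the deposited gene tables, joined on the Ensembl identifier, and make up 10 of the 21561 genes listed in both tables. The rule that picks them uses symbols and no measured value, although earlier results of these data were known when the list was drawn up.

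White adipocytes store energy as triglyceride in a single large lipid droplet and release it as fatty acids when the body needs fuel. The nuclear receptor PPARG and the factor C/EBPα drive the conversion of precursor cells into adipocytes and keep the mature programme on. The genes that they turn on include coats of the lipid droplet, enzymes that take fatty acids up and set them free, and hormones that fat secretes into the blood. The gubernaculum is the cord of mesenchyme and striated muscle that guides the testis towards the scrotum, and the Leydig cell hormone INSL3 acts on it through the receptor RXFP2.

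The study compared C57BL/6J male mice of 3 genotypes, WT, INSL3-KI and INSL3-KO, at postnatal day 8 (P8), P23 and P40. In INSL3-KI mice the minke whale INSL3 cDNA replaces the mouse gene at its own locus by homologous recombination in embryonic stem cells. These mice are homozygous and have lost the neomycin cassette after mating with Cre mice, while how the INSL3-KO line was made is not given in the sources used here. WT mice are of the same strain, and no drug treatment is named for any group. Gubernaculum was sequenced from 5 groups (WT, INSL3-KI and INSL3-KO at P8, WT and INSL3-KI at P23) and testis from 8 (the 3 genotypes at P8 and at P23, WT and INSL3-KI at P40), with 3 libraries in each. INSL3-KO gubernaculum at P23 is not analysed here. The labels call the libraries of a group biological replicates without naming animals, so the p-values measure the spread between these libraries.

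Total counts ran from 29861447 to 45260372 per library over the 39 libraries, with a median of 36944626. Insl3 itself was read as a check of the labels. Gubernaculum at P8 held 87, 25 and 29 of its counts in WT libraries and 0 in all INSL3-KI and INSL3-KO libraries. In P8 testis it had 2722 to 3524 counts in WT and 15 to 33 in INSL3-KI, but 613 to 906 in the libraries labelled INSL3-KO, against 0 to 5 in INSL3-KO testis at P23. In P23 gubernaculum Insl3 did not separate the labels: it had 27, 9 and 20 counts in WT and 12, 28 and 0 in the libraries labelled INSL3-KI (log2 fold change -0.74, edgeR adjusted p = 0.72), and replicate 2 of the latter was above every WT library. Rxfp2 there had 2045 to 3113 counts in WT and 8 to 159 in the libraries labelled INSL3-KI. Rxfp2 in P8 gubernaculum had 1241 to 1645 counts in WT, 53 to 67 in INSL3-KI, and 415, 434 and 1390 in INSL3-KO. INSL3-KO replicate 3 lies within the WT range of raw counts. Its library is larger, with 42314832 counts in shared genes against 34195441 to 35864376 in WT. Scaled to library size, Rxfp2 in that library lies below every WT library. Table and genotype cannot be told apart in the comparisons of INSL3-KO gubernaculum, of INSL3-KO testis at P8 and of INSL3-KI testis at P23, since the libraries compared stand in different tables.

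The question at P8 is what the whale hormone, or no hormone, leaves in the gubernaculum. All 10 white adipocyte genes had higher counts in every mutant library than in every WT library. The share of all genes that separate in this way at P8 is not given here, so this count has no yardstick. Calls come from edgeR's quasi-likelihood test over all genes with Benjamini-Hochberg adjustment, and need an adjusted p below 0.01 together with a 2-fold difference or more. Against WT, 9 of the 10 were called higher in INSL3-KI, where 14.4% of all tested genes were, and all 10 in INSL3-KO, where 15.5% were. None was called lower in either mutant by edgeR or by DESeq2, or had a lower value at an unadjusted p under 0.05, while 9.7% of all genes were called lower in INSL3-KI and 15.2% in INSL3-KO. Over the 10 genes the log2 fold changes had a median of 5.09 in INSL3-KI, against 0.02 over all tested genes, and of 6.07 in INSL3-KO, against 0.03. The 3 WT libraries serve both comparisons. In whole tissue, more or fewer cells of a type cannot be told apart from more or less RNA per cell.

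Levels below are counts, or CPM (counts scaled to an equal total over the shared genes) with the SD over 3 libraries. SE stands for the absolute log2 fold change divided by the square root of the F statistic of edgeR's quasi-likelihood test. It is an approximation and no fitted standard error. For genes with few WT counts it can be smaller than the counting error alone. Of the transcription factors, Pparg (GRCm38, chromosome 6, 115360951 to 115490399, + strand) encodes the nuclear receptor that is the master switch of the fat cell. It had 49, 60 and 48 counts in the WT libraries at P8, 658, 479 and 798 in INSL3-KI and 1648, 1849 and 1915 in INSL3-KO. The 3 groups do not overlap: WT is lowest (1.499 ± 0.152 CPM), INSL3-KI between (21.1 ± 5.89) and INSL3-KO highest (44.2 ± 1.05). The log2 fold change against WT was 3.49 (SE 0.25, edgeR adjusted p = 1.3e-05) in INSL3-KI and 4.71 (SE 0.11, edgeR adjusted p = 7.3e-07) in INSL3-KO.

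Cebpa (chromosome 7, 35119293 to 35121928, + strand) encodes C/EBPα, which acts together with PPARG in fat and is also used by liver and myeloid cells. It was present in WT at 435, 399 and 510 counts and had 2528, 2868 and 3199 in INSL3-KI and 3250, 4223 and 3797 in INSL3-KO. WT lay apart from both mutants, while INSL3-KI (93.8 ± 17.0 CPM) and INSL3-KO (91.8 ± 5.96 CPM) overlap. Cebpa rose by 2.55 (SE 0.17, edgeR adjusted p = 1.1e-05) in INSL3-KI and by 2.66 (SE 0.12, edgeR adjusted p = 3.4e-06) in INSL3-KO on the log2 scale.

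Since the genes move together, their promoters (RefSeq, GRCm38.p6, 250 bases before to 50 after a start) were searched on both strands for the letters TTGCNNAA, which C/EBP factors bind, AGGTCA, the site read by PPARG with its partner RXR when it occurs as a spaced pair, and TATAAA, the TATA box. The table holds 12 promoters for 8 of the 10 genes, with none for Fabp4 and Lpl. TTGCNNAA occurs in 4 of the 12, in Plin1, Cidec, Lep and Pparg, and in 10.8% of all 32851 promoters. AGGTCA occurs in 2, both of Pparg, and in 16.3% of all. A pair of AGGTCA with 1 base between occurs in none and in 0.0396% of all, and TATAAA in 2, a Pparg and the Cebpa promoter, and in 13.6% of all. These are matches of letters and not measured sites. The Pparg promoter at the downstream start, which gives the longer protein known from fat (chr6:115421816-115422115, + strand), and the Cebpa promoter (chr7:35119043-35119342, + strand) are shown 5′ to 3′, with TTGCNNAA in capitals in the first, starting at -215 and -16 from the transcript start, and TATAAA in capitals in the second, starting at -30.
Pparg: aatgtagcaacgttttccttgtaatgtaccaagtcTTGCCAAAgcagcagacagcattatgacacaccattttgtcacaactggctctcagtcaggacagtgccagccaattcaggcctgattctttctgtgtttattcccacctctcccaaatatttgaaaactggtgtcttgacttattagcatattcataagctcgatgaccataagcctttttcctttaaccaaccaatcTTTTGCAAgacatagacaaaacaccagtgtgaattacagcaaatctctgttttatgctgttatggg
Cebpa: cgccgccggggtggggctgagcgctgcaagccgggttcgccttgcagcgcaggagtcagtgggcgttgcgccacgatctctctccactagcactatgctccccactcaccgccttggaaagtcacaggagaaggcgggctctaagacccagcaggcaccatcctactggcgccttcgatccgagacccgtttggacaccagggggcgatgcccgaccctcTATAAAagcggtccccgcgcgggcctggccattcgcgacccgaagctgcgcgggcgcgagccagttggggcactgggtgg

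The lipid droplet genes had at most 50 counts in a WT library at P8. Plin1 (chromosome 7, 79720218 to 79732903, - strand) encodes perilipin 1, the coat that guards the droplet of adipocytes from lipases. It had 8, 10 and 18 counts in WT, 5514, 4190 and 6749 in INSL3-KI and 3851, 4448 and 4203 in INSL3-KO. The mutants overlap in counts but not in CPM, where INSL3-KI (179 ± 48.0) stands above INSL3-KO (102 ± 2.45) and both above WT (0.345 ± 0.155). Plin1 rose by 8.69 (SE 0.32, edgeR adjusted p = 6e-07) in INSL3-KI and by 8.03 (SE 0.21, edgeR adjusted p = 7.9e-07) in INSL3-KO on the log2 scale. Its promoter (chr7:79732727-79733026, - strand) has TTGCNNAA at 2 places, in capitals here, starting at -187 and -58.
Plin1: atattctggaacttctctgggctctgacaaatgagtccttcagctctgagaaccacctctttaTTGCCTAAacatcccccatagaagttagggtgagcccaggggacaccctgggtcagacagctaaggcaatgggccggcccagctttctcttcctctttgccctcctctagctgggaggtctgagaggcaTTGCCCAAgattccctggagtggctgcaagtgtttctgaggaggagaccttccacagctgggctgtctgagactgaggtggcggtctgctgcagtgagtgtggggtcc

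Cidec (chromosome 6, 113424634 to 113435760, - strand) encodes a protein that lets small droplets merge into the large one of white fat. WT libraries had 3, 50 and 4 counts, INSL3-KI 1937, 3321 and 2862, and INSL3-KO 3873, 4822 and 4302. One WT library is more than 10-fold above the other two, and even so the WT group lies far below both mutants. The log2 fold change was 7.04 (SE 0.71, edgeR adjusted p = 8.7e-05) in INSL3-KI and 7.44 (SE 0.67, edgeR adjusted p = 6.7e-05) in INSL3-KO, and it moved up to 9.39 and 9.81 when that library was left out.

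The genes of fatty acid uptake and release had at least 388 counts in each WT library at P8. Fabp4 (chromosome 3, 10204088 to 10208576, - strand) encodes the fatty acid carrier of adipocytes, which capillary endothelium and macrophages also express. It had 2809, 3292 and 2926 counts in WT, 19079, 15436 and 19767 in INSL3-KI, and 50994, 68253 and 62776 in INSL3-KO, 3 groups with no overlap. It rose by 2.45 (SE 0.13, edgeR adjusted p = 2.9e-06) in INSL3-KI and by 3.93 (SE 0.09, edgeR adjusted p = 6.6e-07) in INSL3-KO on the log2 scale.

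Lpl (chromosome 8, 68880491 to 68907448, + strand) encodes lipoprotein lipase, which frees fatty acids from blood lipoproteins for fat and muscle alike. It had 9947, 10562 and 9366 counts in WT, 25028, 15744 and 23527 in INSL3-KI and 49566, 56678 and 62350 in INSL3-KO. INSL3-KI lay between the other groups without overlap. The fold change in INSL3-KI was 1.95 (log2 0.97, SE 0.16, edgeR adjusted p = 0.0014), just under the 2-fold limit, so that Lpl is the gene not called there. In INSL3-KO it rose by 2.10 (SE 0.08, edgeR adjusted p = 1.6e-06) on the log2 scale.

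Lipe (chromosome 7, 25379527 to 25398710, - strand) encodes hormone-sensitive lipase, which splits stored lipid on demand. It had 388, 478 and 439 counts in WT, 4564, 4908 and 5574 in INSL3-KI and 3203, 4114 and 3613 in INSL3-KO, and here INSL3-KI was the highest group. It rose by 3.40 (SE 0.15, edgeR adjusted p = 1.3e-06) in INSL3-KI and by 2.67 (SE 0.09, edgeR adjusted p = 1.5e-06) in INSL3-KO on the log2 scale.

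The hormones of fat had at most 7 counts in a WT library at P8. Adipoq (chromosome 16, 23146536 to 23158028, + strand) encodes adiponectin, a hormone made almost only by adipocytes. It had 6, 6 and 7 counts in WT, 3288, 2946 and 4081 in INSL3-KI and 11096, 13899 and 13531 in INSL3-KO. It rose by 8.93 (SE 0.25, edgeR adjusted p = 1.6e-07) in INSL3-KI and by 10.56 (SE 0.12, edgeR adjusted p = 7.1e-08) in INSL3-KO on the log2 scale, a 488-fold and a 1510-fold difference. With 19 WT counts in all, the ratio of pooled CPM was 614 in INSL3-KI (exact 95% Clopper-Pearson interval 393 to 1021, counting error only). For INSL3-KO that ratio was 1731 (1109 to 2876). In the INSL3-KO comparison no other gene in the table had a smaller p.

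Lep (chromosome 6, 29060220 to 29073877, + strand) encodes leptin, which signals the size of fat stores to the brain. It had 2, 3 and 0 counts in WT, 303, 67 and 245 in INSL3-KI and 2017, 2329 and 2144 in INSL3-KO. The groups do not overlap, and the second INSL3-KI library is well below the other two. The log2 fold change was 6.69 (SE 0.84, edgeR adjusted p = 2.9e-04) in INSL3-KI and 9.86 (SE 0.31, edgeR adjusted p = 1.1e-06) in INSL3-KO. With 5 WT counts in all, the ratio of pooled CPM was 139 in INSL3-KI (exact 95% Clopper-Pearson interval 59.3 to 430, counting error only) and 1108 in INSL3-KO (475 to 3415). The Lep promoter (chr6:29059971-29060270, + strand) has TTGCNNAA once, at -55, as a palindrome that reads the same on both strands, in capitals here.
Lep: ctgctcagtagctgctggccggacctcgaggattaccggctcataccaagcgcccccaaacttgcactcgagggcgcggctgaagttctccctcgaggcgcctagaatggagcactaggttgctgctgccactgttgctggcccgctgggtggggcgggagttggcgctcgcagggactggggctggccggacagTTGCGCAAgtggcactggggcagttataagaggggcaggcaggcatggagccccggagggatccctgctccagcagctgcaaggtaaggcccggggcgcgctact

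Retn (chromosome 8, 3655770 to 3660110, + strand) encodes resistin, a hormone that in mice comes from adipocytes. It had 0 counts in all 3 WT libraries, 1690, 1174 and 1923 in INSL3-KI and 5930, 7842 and 7331 in INSL3-KO. Set against a floor of 3 counts over the WT group, Retn was at least 1806-fold higher in INSL3-KI and at least 6007-fold higher in INSL3-KO (edgeR adjusted p = 6.5e-06 and 1.1e-06).

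**Figure D1:**
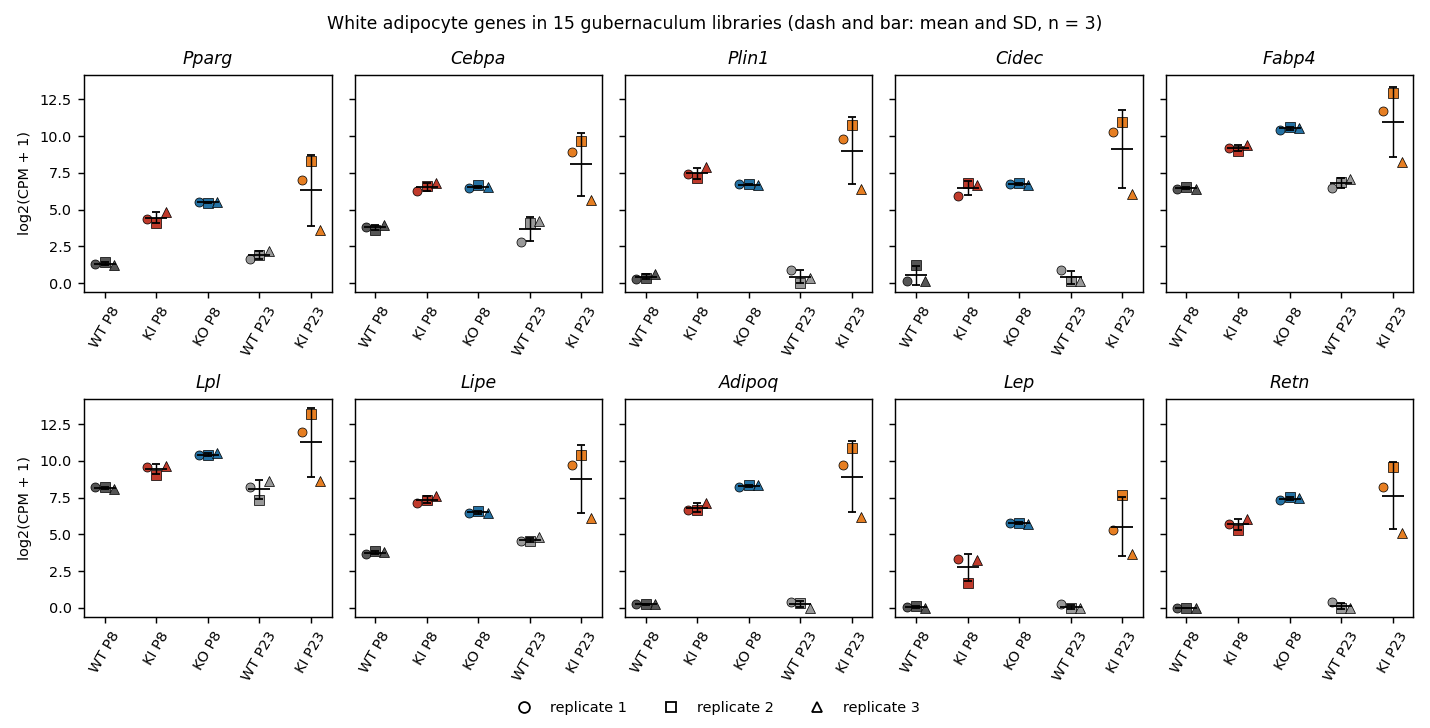
Level of each of the 10 white adipocyte genes in the 15 gubernaculum libraries, as log2(CPM + 1) on the vertical axis, by group on the horizontal axis (WT, INSL3-KI and INSL3-KO at P8, WT and INSL3-KI at P23). Each point is a library, its shape the replicate number, and the dash and bar give the mean and SD of the 3 log values. At P8 every mutant library lies above every WT library, and at P23 the 3 INSL3-KI libraries spread widely, with replicate 2 highest and replicate 3 lowest in each gene.

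Summed over the 10 genes, the WT libraries at P8 held 400 ± 14.2 CPM (SD, n = 3), INSL3-KI 2003 ± 338 and INSL3-KO 3829 ± 170. As a share of the counts in the shared genes this is 0.0386% to 0.0414% in WT, 0.170% to 0.237% in INSL3-KI and 0.363% to 0.393% in INSL3-KO. Levels between genes are compared per transcript length, in the authors' FPKM, which scales fragments by transcript length and library size. On that scale Fabp4 was the highest of the 10 in each of the 5 gubernaculum groups and Lpl the second, at 89.4 ± 5.13 and 64.5 ± 2.92 FPKM in WT at P8. The next genes in WT, Cebpa and Lipe, were at 4.55 ± 0.643 and 3.66 ± 0.0844 FPKM, and the other 6 below 0.7. In both mutants the third was Adipoq, at 82.2 ± 17.9 FPKM in INSL3-KI and 224 ± 9.37 in INSL3-KO, and Lep was the lowest, at 1.91 ± 1.11 and 15.02 ± 0.599. In INSL3-KI, Plin1, Retn, Lipe and Cidec lay between 49.3 and 63.1 FPKM, closer together than their SDs, and their order is not resolved. The order in INSL3-KO below Retn (180 ± 11.8 FPKM) was Cidec, Plin1, Cebpa, Lipe and Pparg, from 57.0 ± 3.13 down to 22.8 ± 0.495. FPKM of Plin1 does not compare between the tables, since the transcript length that its counts and FPKM imply is 2660 bases in one and 2023 in the other.

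Whether the whale gene and the lack of a gene leave the same level was tested directly between the mutants at P8. INSL3-KI was called lower than INSL3-KO in 6 of the 10 genes, where 10.5% of all tested genes were: Lep (log2 difference -3.19, SE 0.46, edgeR adjusted p = 8e-04), Retn (-1.91, SE 0.18, edgeR adjusted p = 1.3e-04), Adipoq (-1.67, SE 0.15, edgeR adjusted p = 9.4e-05), Fabp4 (-1.51, SE 0.12, edgeR adjusted p = 5.3e-05), Pparg (-1.25, SE 0.19, edgeR adjusted p = 0.001) and Lpl (-1.17, SE 0.16, edgeR adjusted p = 7e-04). All 3 hormones are among the 6. The droplet genes were not called: Plin1 differed by 0.63 (SE 0.18, edgeR adjusted p = 0.017), the other way, and Cidec by -0.44 (SE 0.22, edgeR adjusted p = 0.12). Lipe was 1.62-fold higher in INSL3-KI (edgeR adjusted p = 0.0023), under the 2-fold limit, and Cebpa differed by -0.15 (SE 0.13, edgeR adjusted p = 0.34). None of the 10 was called higher by edgeR or DESeq2, with 2 higher at an unadjusted p under 0.05 in each. With all gubernaculum groups in 1 fit, where the spread of the P23 libraries enters, none of the 6 was called. The mutants stand in different tables, so table and genotype cannot be told apart here.

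**Figure D2:**
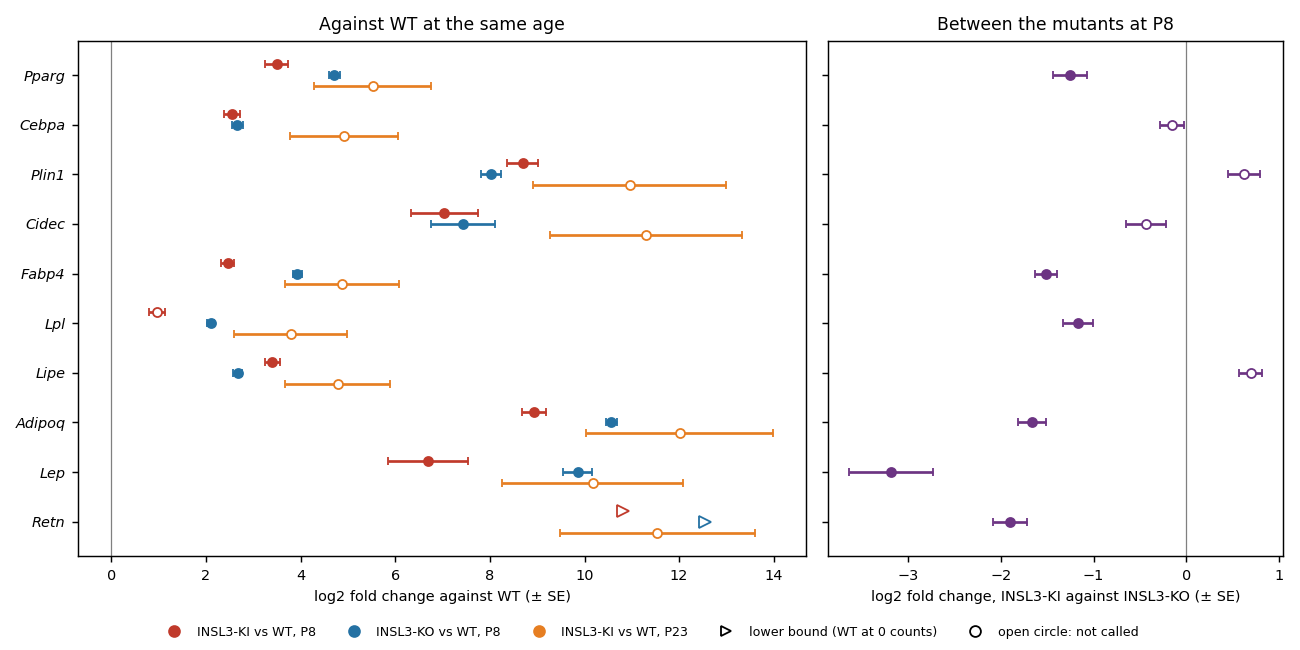
Log2 fold changes of the 10 genes with their SE, against WT at the same age (left: INSL3-KI at P8, INSL3-KO at P8, INSL3-KI at P23) and between INSL3-KI and INSL3-KO at P8 (right). The SE is the approximation from the F statistic defined in the text, which can be smaller than the counting error where WT counts are few. Filled points were called, open circles were not, and arrowheads mark the lower bounds of Retn at P8, where WT had 0 counts. All values on the left are above 0, and on the right 6 genes lie below 0 and were called.

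Other genes of fat were counted at P8 in lists chosen by function. Their counts are read against 14.4% of all genes called higher and 9.7% lower in INSL3-KI, and 15.5% and 15.2% in INSL3-KO. Of 20 tested genes of lipid storage and breakdown, 10 were called higher in INSL3-KI and 13 in INSL3-KO, among them Mogat1 (log2 7.25 and 7.65), an acyltransferase of triglyceride synthesis, and Pnpla3 (4.09 and 6.66), a lipid droplet hydrolase. Called lower were 1 and 2 of these, with Fitm1, a droplet gene of muscle, at -5.81 in INSL3-KI. Of 16 genes of lipogenesis and glucose uptake, 8 were called higher in each mutant, led by Pck1 (6.55 and 7.02), which supplies glycerol phosphate in fat, and Scd1 (4.95 and 6.19), the stearoyl desaturase. Of 10 genes of fatty acid uptake, 4 and 5 were called higher, with Acsl1, which activates fatty acids, at 1.35 and 1.93.

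Of 15 tested adipokines and receptors, 4 were called higher and 2 lower in INSL3-KI, and 8 higher and 1 lower in INSL3-KO. In INSL3-KI both counts are not far from the shares over all genes. Cfd, the complement factor adipsin made by fat, stood at 10.34 and 10.79, and Adrb3, the β3-adrenergic receptor of adipocytes, at 5.68 and 6.61. The adipogenic regulators gave no common direction, with 5 higher and 4 lower of 19 in INSL3-KI and 5 and 5 in INSL3-KO. Id2 was at 4.998 and 5.03, Nr1h3, the liver X receptor, at 2.61 and 3.18, and Klf5, a factor of early adipogenesis, at -4.17 in INSL3-KO. Of 12 genes of preadipocytes and stromal progenitors, 3 were called higher and 3 lower in INSL3-KI and 4 and 4 in INSL3-KO. Dlk1, which marks preadipocytes and is lost as they mature, stood at -4.43 and -2.74, and Gata3, which restrains adipogenesis, at 7.004 and 5.25.

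Markers of other cell types moved in the same libraries, and their part in the results above was not tested. Summed FPKM of 10 skeletal muscle markers was 19398 to 20412 in WT at P8, 762 to 1283 in INSL3-KI and 5542 to 6132 in INSL3-KO, with all 10 called lower in each mutant. The 8 epithelial markers summed to 18.4 to 64.0 FPKM in WT, 872 to 1006 in INSL3-KI and 377 to 406 in INSL3-KO, with all 8 called higher. The 10 markers of capillary endothelium, which also holds Fabp4 and Lpl protein, summed to 202 to 229 in WT, 321 to 392 in INSL3-KI and 359 to 385 in INSL3-KO, and 2 and 4 were called higher. Fibroblast markers summed to 7385 to 7667 in WT, 3983 to 5981 in INSL3-KI and 6002 to 6443 in INSL3-KO. Of the brown adipocyte markers Ucp1, the uncoupling protein that defines brown fat, had 2, 8 and 4 counts in WT, 33, 20 and 89 in INSL3-KI and 652, 666 and 779 in INSL3-KO, and was called higher in both (log2 3.21 and 6.80). No other brown marker was called higher in either mutant. Called lower were 5 of 9 tested brown markers in INSL3-KI and 3 of 10 in INSL3-KO. The 10 brown markers summed to 78.4 to 89.4 FPKM in WT, 12.5 to 16.8 in INSL3-KI and 68.7 to 91.3 in INSL3-KO. Their sum did not follow the white adipocyte genes. Muscle markers fell in the same libraries, and whether muscle contributes to the brown sum was not tested.

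**Figure D3:**
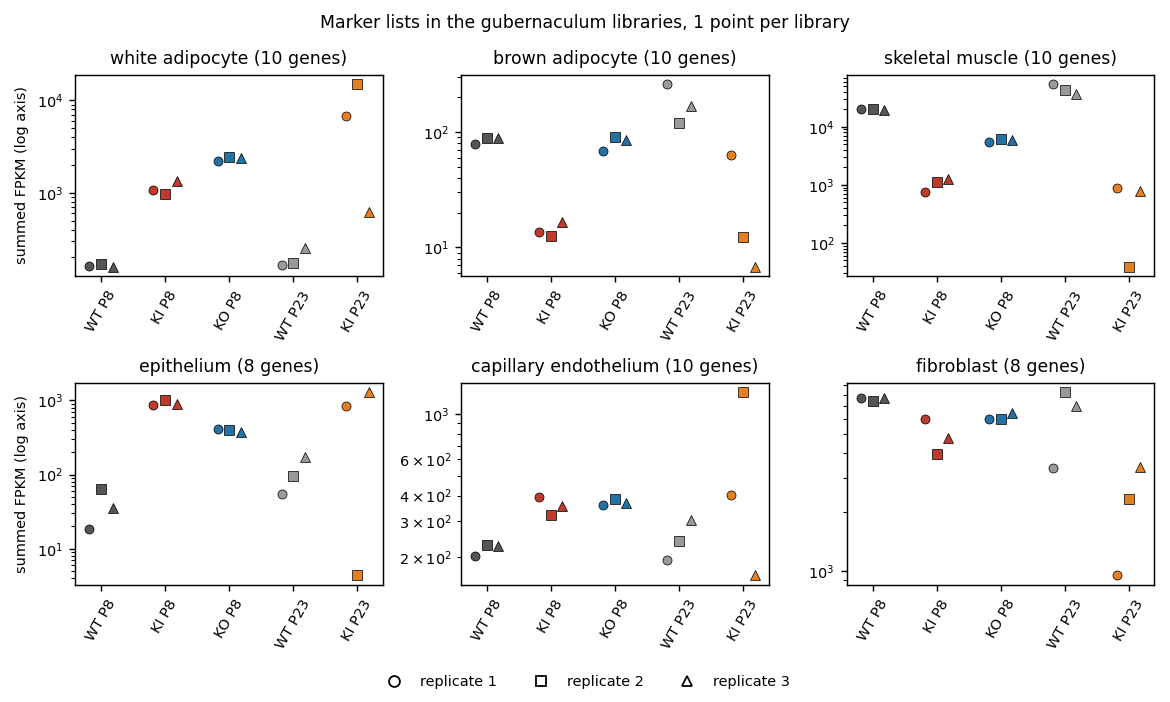
Summed FPKM of 6 marker lists, on log axes that differ between panels, in the 15 gubernaculum libraries by group, with 1 point per library shaped by replicate number. White adipocyte and epithelial markers are higher in the mutants at P8 and skeletal muscle markers lower. At P23 the INSL3-KI library with the highest white adipocyte sum, replicate 2, has the lowest epithelial sum, 4.38, and the lowest muscle sum.

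At P23, the libraries labelled INSL3-KI were compared with WT. WT stayed low: Adipoq had 11, 8 and 0 counts, Retn 10, 0 and 0, Lep 6, 0 and 0, Plin1 28, 0 and 10, and Cidec 29, 4 and 3. In INSL3-KI the libraries differed widely among themselves. Adipoq had 29263, 63284 and 2839 counts, Fabp4 114774, 263462 and 12075 (WT 2840, 4124 and 4817), and Pparg 4513, 10571 and 448 (WT 72, 97 and 128). In each of the 10 genes replicate 2 was the highest and replicate 3 the lowest. The 10 genes took 1.21%, 2.61% and 0.109% of the counts of the 3 INSL3-KI libraries and 0.0321% to 0.0578% in WT.

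Replicate 3 still lay above all WT libraries in 9 of the 10 genes, where the INSL3-KI libraries lay above WT in 31.2% of all tested genes. The exception is Lpl, with 89.4 FPKM in that library and up to 91.3 in WT. The log2 fold changes ran from 3.79 (SE 1.19, edgeR adjusted p = 0.087) for Lpl to 12.01 (SE 1.97, edgeR adjusted p = 0.019) for Adipoq, with a median of 7.85 against 0.11 over all genes. None of the 10 was called by edgeR, where 0.212% of all genes were called higher. At an unadjusted p under 0.05 all 10 were higher, as were 16.7% of all genes. The number called differed between fits. DESeq2 called all 10 higher (5.53% of all genes), and so did edgeR with all gubernaculum groups in 1 fit (6.2%). Without INSL3-KI replicate 3, edgeR called 5, namely Adipoq, Fabp4, Pparg, Cebpa and Lipe (0.835% of all genes), with the change in Pparg at 6.06 (SE 0.49) in place of 5.53 (SE 1.24).

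The libraries that stood apart in fat genes also stood apart in other markers, and the part of these in the result was not tested. Epithelial markers summed to 833, 4.38 and 1278 FPKM in INSL3-KI replicates 1, 2 and 3 and to 54.2 to 172 in WT at P23. Skeletal muscle markers summed to 39.1 to 887 FPKM in INSL3-KI and to 35900 to 55081 in WT, with 6 of 10 called lower, where 2.35% of all genes were. Ckm, the muscle creatine kinase, and Ucp1 had 0 counts in replicate 2, while Ucp1 had 929 in replicate 1. Endothelial markers summed to 1273 FPKM in replicate 2 and to 163 in replicate 3. From the lists of other fat genes, Fitm1, the droplet gene of muscle named above, was called lower at P23 (-9.40).

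Between ages, WT gubernaculum gave little change. Only 5 of the 10 genes passed the filter on low counts, and Lipe alone was called higher at P23 (log2 1.04, SE 0.14, edgeR adjusted p = 0.0026), as were 6.17% of all genes. It had 388, 478 and 439 counts at P8 and 730, 789 and 948 at P23, with no overlap, but the call was lost without any 1 of the 3 P8 libraries or without P23 replicate 3. Pparg was at 1.02 (SE 0.33, edgeR adjusted p = 0.046) and Fabp4 at 0.49 (SE 0.14, edgeR adjusted p = 0.034), neither called, and Cebpa and Lpl were both at 0.11. The 5 genes left out, Adipoq, Plin1, Cidec, Lep and Retn, had between 0 and 50 counts in each of the 6 WT libraries. Of the lists of other fat genes in WT, lipid storage and breakdown had 10 of 19 tested genes called higher at P23, among them Gpd1 (2.32) and Pnpla2 (2.24), the adipose triglyceride lipase. Lipogenesis and glucose uptake had 3 of 15 called higher, adipogenic regulators 5 higher and 2 lower of 19, and adipokines and receptors 4 higher and 1 lower of 13. Fatty acid uptake had 1 higher and 1 lower of 10, and preadipocytes and stromal progenitors 2 and 2 of 13. The share of all genes called lower with age in WT is not given here, so the counts called lower have no yardstick.

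In INSL3-KI gubernaculum all 10 genes had higher means at P23 than at P8, with log2 fold changes from 2.45 (Lipe, SE 1.01) to 3.94 (Lep, SE 1.26). None was called by edgeR, and 0% of all genes were. At an unadjusted p under 0.05, 9 were higher (10.5% of all genes), and DESeq2 called 3, Adipoq, Cidec and Lep (1.57%). The groups overlapped in 9 genes, with replicate 3 at P23 within or below the P8 range, and Lep alone had no overlap. The difference of the INSL3-KI effect between the ages, tested as an interaction, was positive in 9 of the 10 genes with a median of 2.36. None was called by edgeR (0.0874% of all genes) or DESeq2, while 2 passed an unadjusted p under 0.05, Cidec and Lpl (11.6% of all genes), and 5 did in DESeq2. Without INSL3-KI P23 replicate 3, edgeR called 4, Fabp4, Cebpa, Lpl and Lipe (1.53%), with Lpl at 3.34 (SE 0.58).

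Over the 15 gubernaculum libraries the 10 genes followed a common pattern. Pearson's r between log2(CPM + 1) of a gene and the standardized mean of the 10, which contains the gene itself, ran from 0.941 (Lpl) to 0.994 (Pparg). A mean of at least 10 CPM was reached by 10818 genes, counted before the 10 members and predicted genes were set aside. Of the rest the most alike were Lgals12 (r = 0.997), a galectin of the adipocyte droplet, Mrap (0.994), the melanocortin 2 receptor accessory protein, and Adrb3 (0.991). Next came Trarg1, Gpat3, Acvr1c, Reep6, Btnl9, Agpat2 and Adig, down to 0.980. Lgals12 averaged 0.0290 CPM in WT at P8, 30.0 in INSL3-KI, 56.3 in INSL3-KO and 236 in INSL3-KI at P23. The points share libraries and the 5 groups, and the correlation is a description of these libraries.

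Testis gave another picture. At P8, 8 of 9 tested genes had negative log2 fold changes in each mutant against WT, of which edgeR called 1 in INSL3-KI and 4 in INSL3-KO. WT testis at P8 is uneven: Adipoq had 124, 251 and 1552 counts, Fabp4 349, 673 and 4985 and Plin1 882, 1225 and 4224, with replicate 3 highest in all 10 genes by CPM. That library also had the highest fibroblast sum, 4584 against 1587 and 2472 FPKM. In WT at P8, gubernaculum lay below testis in Adipoq (log2 -6.13), Plin1 (-6.94), Cebpa (-1.998) and Retn, 4 of 9 tested genes against 14.3% of all, and Retn had 0 counts in gubernaculum and 46, 57 and 313 in testis. The 4 were also called without testis replicate 3, and 2 were without any 1 gubernaculum library. INSL3-KI testis at P8 was called lower in 1 of 9 tested genes, Cebpa (log2 -1.86, SE 0.28, edgeR adjusted p = 0.0064), where 3.25% of all genes were. Cebpa had 1610, 2593 and 3460 counts in WT and 769, 491 and 869 in INSL3-KI. Its call was lost without WT replicate 2 or 3 or INSL3-KI replicate 1 or 3, with -1.57 (SE 0.23, edgeR adjusted p = 0.02) without WT replicate 3. In the libraries labelled INSL3-KO at P8, 4 of 9 were called lower, where 8.37% of all genes were: Adipoq (-4.20), Plin1 (-3.08), Cebpa (-2.23) and Lpl (-2.18). Without WT replicate 3 these 4 were at -2.42, -2.09, -1.95 and -1.73 and each was still past the threshold, while the count was 8 without WT replicate 1 and 2 without any 1 of the libraries labelled INSL3-KO. Those libraries carry Insl3 counts, as given above, and stand in another table than WT.

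Later in testis Lipe stood apart. Besides fat, this lipase is known from germ cells of the testis. Its counts in WT were 887, 958 and 2328 at P8, 13346, 13332 and 13174 at P23 and 14573, 15946 and 16565 at P40. In the mutants they were 2454, 2667 and 945 in INSL3-KI and 424, 453 and 502 in INSL3-KO at P23, and 1163, 836 and 1314 in INSL3-KI at P40, all far below WT. On the log2 scale Lipe fell by 3.23 (SE 0.41, edgeR adjusted p = 0.0021) in INSL3-KI at P23, where WT stands in the other table, so that genotype cannot be told apart from table. In INSL3-KO of that age it fell by 5.53 (SE 0.06, edgeR adjusted p = 5.1e-13), and in INSL3-KI at P40 it fell by 4.40 (SE 0.23, edgeR adjusted p = 8.6e-05). Germ cell markers summed to 5838 to 6595 FPKM in WT at P23, 852 to 1235 in INSL3-KI and 169 to 194 in INSL3-KO, and at P40 to 3373 to 3994 in WT and 237 to 790 in INSL3-KI, and their part in the fall of Lipe was not tested.

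**Figure D4:**
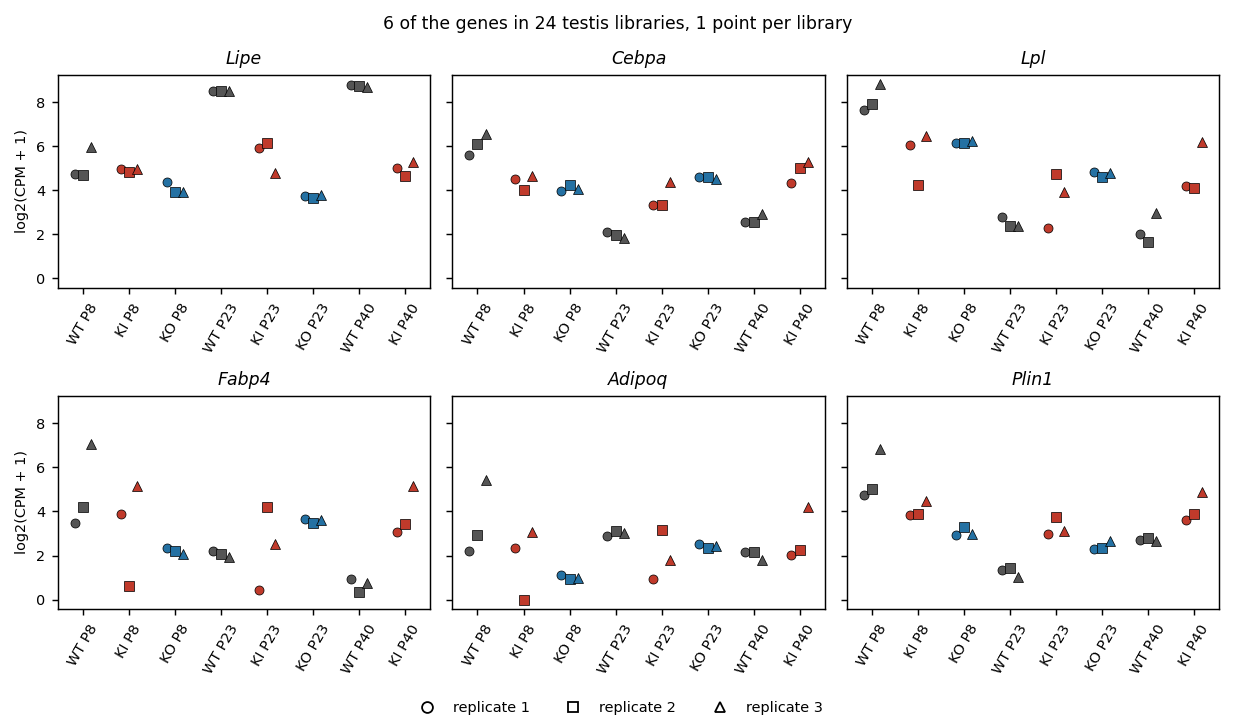
Level of 6 of the genes in the 24 testis libraries, as log2(CPM + 1) by group, with 1 point per library shaped by replicate number (grey WT, red INSL3-KI, blue INSL3-KO). Lipe is at 361 ± 1.997 CPM in WT at P23 and 424 ± 14.4 at P40 and far lower in the mutants of those ages, while Cebpa is lower in WT than in the mutants from P23 on.

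Cebpa had 122, 108 and 92 counts in WT at P23, 373, 348 and 699 in INSL3-KI and 818, 919 and 860 in INSL3-KO, and was called higher in both (log2 1.61, SE 0.31, and 2.34, SE 0.13). At P40 it had 163, 186 and 269 in WT and 726, 1102 and 1339 in INSL3-KI (1.81, SE 0.25). INSL3-KI at P23 was called higher in 2 of the 10 genes, Plin1 (2.17) and Cebpa, where 8.81% of all genes were, and lower in Lipe alone, where 11.8% were. None of the 3 was called by edgeR when any 1 WT library or INSL3-KI replicate 1 was left out. These INSL3-KI and WT libraries stand in different tables, and the implied length of Plin1 differs between them, as given above. INSL3-KO at P23 was called higher in Fabp4 (1.13), Cebpa and Lpl (1.79), 3 of 10 against 31.1% of all genes, and lower in Adipoq (-1.32) and Lipe, 2 of 10 against 33.4%. INSL3-KI at P40 was called higher in Fabp4 (4.17) and Cebpa, 2 of 10 against 25.6%, and lower in Lipe, 1 of 10 against 22.1%. The 2 higher became 1 without any 1 WT library and 5 without INSL3-KI replicate 1. In INSL3-KO at P23 and INSL3-KI at P40 these shares lie near those of all genes, in both directions. Lep had at most 118 counts in any testis library.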

How the data were processed

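The 10 genes and the marker and pathway lists were chosen with earlier results of these data known. Poly(A) RNA was sequenced as paired 150-base reads, and the submitters' processing notes name HISAT2 and the GRCm38 mouse genome. The counting tool, its strand setting and the annotation are not given in the sources used here. The authors deposited 2 gene tables, 1 with 27 libraries and 1 with 12, each holding raw counts and FPKM, which were joined on the Ensembl identifier (21561 shared genes). CPM were computed from the counts in shared genes. Counts were fitted with edgeR 4.0.16 (R 4.3.3) by the quasi-likelihood test with TMM scaling, after the default filter on low counts (10 counts), on the libraries of each comparison. Genes were called at an adjusted p under 0.01 (Benjamini-Hochberg over all tested genes) and a fold change of at least 2. DESeq2 1.42.0, limma 3.58.1 on log2(FPKM + 1) and other settings were tried as alternatives. Genes named are the 10 members, Insl3 and Rxfp2, up to 3 called genes of each list with the largest changes in a comparison, and the 10 most alike in pattern. Ckm and Ucp1 were named after their values were seen. Shared genes held 94.2% to 97.9% of each library's total count.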

Additional observations from a re-analysis of the deposited data

Results flagged for a closer look

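Several of the 10 genes had log2 fold changes of opposite sign in gubernaculum and testis of the same genotype and age, with every mutant library on 1 side of every WT library in each tissue. The difference between tissues was not tested. The share of all genes that separate in this way in both tissues is not given here, so the pattern has no yardstick. In INSL3-KI at P8 the log2 fold change against WT was 8.69 in gubernaculum and -1.94 in testis for Plin1, 2.55 and -1.86 for Cebpa, and 0.97 and -2.49 for Lpl. Of these, Plin1 and Cebpa were called in gubernaculum and Cebpa alone in testis.

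In INSL3-KO at P8, where the testis libraries labelled INSL3-KO carry Insl3 counts, the pattern covered more genes. The log2 fold change in gubernaculum and in testis was 10.56 and -4.20 for Adipoq, 3.93 and -4.04 for Fabp4, 8.03 and -3.08 for Plin1, and 7.44 and -3.93 for Cidec. It was 2.66 and -2.23 for Cebpa, 2.10 and -2.18 for Lpl, and 2.67 and -1.36 for Lipe. For Lep it was 9.86 in gubernaculum, and Lep was too low in testis to be tested. For Retn the fitted value of 15.59 in gubernaculum depends on the prior count, since WT had 0 counts, and is no bound, while testis gave -2.51. In testis Adipoq, Plin1, Cebpa and Lpl were called, while Fabp4 (adjusted p = 0.011), Cidec (0.022), Lipe (0.018) and Retn (0.039) were not, all by edgeR.

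At P23 Lipe differed by 4.78 in INSL3-KI gubernaculum, not called, and by -3.23 in INSL3-KI testis, called, where the libraries compared stand in different tables. In P8 testis WT replicate 3 was the highest of the group in all 10 genes.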

How the results depend on the processing

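In gubernaculum at P8 the count of genes called higher kept within 1.5 times of its value under all alternatives tried, from 7 to 10 of 10 in INSL3-KI and from 9 to 10 in INSL3-KO. Between the P8 mutants, 0 in place of 6 genes passed as lower in INSL3-KI with all gubernaculum groups in 1 fit. At P23 the count called higher in INSL3-KI went from 0 to 10 with DESeq2, 2 with limma on log2(FPKM + 1) and 10 with all groups in 1 fit, and it ran from 0 to 5 when each library was left out in turn. Lipe was no longer called higher with age in WT by library size only, limma or 1 fit (0 each, and 0 to 1 with a library left out), and DESeq2 called 3 higher with age in INSL3-KI. The interaction count ran from 0 to 4 with a library left out.

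In testis at P8, INSL3-KI had 3 lower with DESeq2, 0 with the replicate block and 0 to 1 with a library left out, and the libraries labelled INSL3-KO had 8 lower with DESeq2, 2 with limma and 2 to 8. At P23, INSL3-KI had 1 higher with the replicate block, 0 to 2 higher and 0 to 2 lower with a library left out, and INSL3-KO had 1 lower by library size only and by limma. At P40, INSL3-KI had 4 higher by library size only and by DESeq2, and 1 to 5 with a library left out. WT gubernaculum against testis at P8 had 5 lower with DESeq2 and 2 to 4 with a library left out.

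Directions that turned were all small or imprecise. Cebpa between INSL3-KI and INSL3-KO became 0.0303 by library size only and 0.0527 by limma. With age in WT, Cebpa became -0.0523 by limma and ran from -0.13 to 0.43 with a library left out, and Lpl became -0.00853 by library size only and -0.0744 by limma and ran from -0.13 to 0.40. The interaction of Retn became 1.82 by limma and ran from -3.16 to 3.01. Summed FPKM in place of CPM gave 6.91 and 14.3 times WT at P8 in INSL3-KI and INSL3-KO, against 5.01 and 9.58. Where no value above shows it, the cause was not tested. Of the values of single genes, 420 kept direction and side of the threshold under the planned settings and 520 with a library left out, 27 and 10 became called, 22 and 36 lost the call, and 6 and 4 reversed. Scaling by library size only moved the median of all genes in gubernaculum by 0.32, 0.17 and 0.30 in INSL3-KI and INSL3-KO at P8 and INSL3-KI at P23. In testis the move was 0.11 and 0.12 in INSL3-KI and INSL3-KO at P8. It was 0.47 and 0.64 in INSL3-KI and INSL3-KO testis at P23 and 0.61 in INSL3-KI testis at P40. Between WT gubernaculum and testis at P8 it was -0.42.

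Replicate numbers are shared between groups, but same-numbered libraries did not deviate together in all 3 pairs of any comparison, so the numbers were not taken as pairs. For INSL3-KI against WT in gubernaculum, r was from -0.07 to 0.05 at P8. At P23 it was -0.11, 0.35 and 0.46 for replicates 1, 2 and 3, so some of these pairs did deviate together. In testis it was 0.24, -0.14 and 0.33 for INSL3-KI at P8 and 0.13, -0.08 and 0.21 at P40. With the replicate block, Cebpa lost its call in INSL3-KI testis at P8 (-1.83, adjusted p = 0.013) and P23 (1.55, adjusted p = 0.02), Adipoq lost it in the P8 testis libraries labelled INSL3-KO (-3.40, adjusted p = 0.016) and Lpl gained one in INSL3-KI testis at P40 (2.36, adjusted p = 0.0024), all by edgeR. With 3 libraries a group and some WT levels near 0 counts, folds of Adipoq, Lep, Plin1 and Cidec rest on few WT counts.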
